A study of Mus musculus with 6 samples.

Results

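Transcripts of 6 protein kinase C genes were followed in the epidermis of mouse tail skin: the conventional kinase genes Prkca and Prkcb and the calcium-independent kinase genes Prkcd, Prkce, Prkch and Prkcq. They were found as the probes whose RefSeq accession belongs to 1 of these genes, which gave 9 of the 55681 probes of the array and 6 of the 14136 named genes that were tested. Wild-type C57BL/6 mice were compared at 2 ages, with 3 samples from mice of 8 weeks, called young, and 3 from aged mice, where replicate 1 was 22 months old and replicates 2 and 3 were 25 months old. Epidermis was lifted from the dermis with EDTA, its RNA was amplified to cDNA, and every sample had a 1-colour array to itself. The family was selected on the aged minus young value of Prkcb in these same arrays. The differences of all 6 genes between the ages are therefore given as a description, and calls among them are counted but not read as a test.

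Protein kinase C enzymes phosphorylate serine and threonine and are switched on at membranes by diacylglycerol, the lipid that phospholipase C releases from phosphoinositides. Conventional forms need calcium as well, the calcium-independent forms do not, and atypical forms respond to neither. In skin the family is known as the target of phorbol esters, plant compounds that mimic diacylglycerol, and for its part in the switch of keratinocytes from growth to differentiation.

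Detection was similar on the 6 arrays. The 75th percentile of signal lay between 230.2 and 300.3 units, and between 50.02% and 54.38% of probes were well above background. The 5 keratinocyte markers Krt5, Krt14, Trp63, Krt10 and Krt1 were well above background on all 6 arrays, with a summed level of 1625 to 1773 times the 75th percentile in young and 1697 to 1772 in aged samples. That sum rests mainly on the probes of Krt5 and Krt10, while Krt1 ranged from 7.0035 to 8.32 log2 units over the arrays. Y-linked Ddx3y and Eif2s3y were well above background on replicate 1 of both ages and not on the other 4 arrays. Young replicates 1 and 2 lay in a slide row of their own, apart from young replicate 3 and the 3 aged arrays. By these Y-linked values replicate 1 did not share a single animal with replicates 2 and 3 of its age. Whether separate animals gave all the samples is not stated, and p-values then cover the spread among these arrays alone. Over all 14136 named genes 11 passed a limma adjusted p of 0.05, or 0 with the replicate number as a block and 809 without aged replicate 1. Adjustment ran over 25068 features, the named genes and the unnamed probes, of which 0.0638% were called.

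All 9 probes of the 6 kinase genes were well above background on all 6 arrays. Values below are log2 signals relative to the array's 75th percentile, and differences are aged minus young. Levels of different probes cannot be set against each other on such arrays, so each gene is read only across samples. In the 6 genes 2 means were higher and 4 lower in aged epidermis, with a median difference of -0.22 log2 units, beside 63.6% of all named genes higher and a median of 0.093. Of the 6 genes 0 passed the limma threshold (0.0638% of features did), or 1, Prkcb, without aged replicate 1 (5.26% of features). Prkcb also passed with normexp background correction (0.0798% of features), with median scaling (0.12%) and without replicate 1 of both ages (1.25%). Both Prkcb and Prkcq passed with array weights (8.14%). Again 0 of the 6 genes passed with quantile normalization, other detection filters, the replicate block or the authors' table. The same held when any single array other than aged replicate 1 was left out. Of the 6 genes 2 had an unadjusted p under 0.05, Prkcb and Prkcq (18.4% of features). The groups did not overlap for 2 genes, against 26.7% of features, with 1 above and 1 below the young values (16.6% and 10.1% of features). Since the set was selected on this contrast, nothing is read from these counts.

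**Figure D1:**
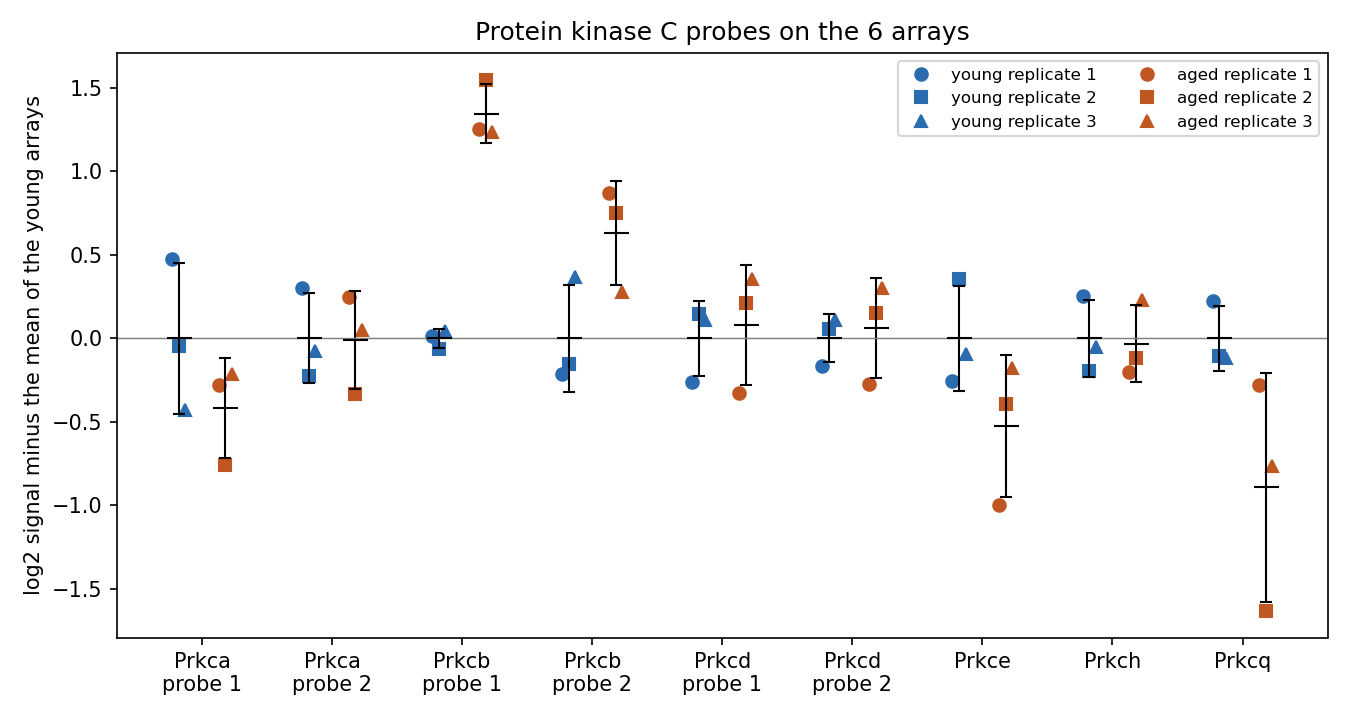
Log2 signal of the 9 protein kinase C probes on each array, minus the mean of the young arrays of that probe. Points are arrays, and horizontal ticks with bars are group means ± SD (n = 3). Probe 1 of Prkcb is higher on all 3 aged arrays than on any young array, and Prkcq is lower on all 3.

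The brighter probe of Prkcb, the conventional kinase PKC-beta, was higher on all 3 aged arrays than on any young array. It stands for the gene and read -0.50, -0.58 and -0.47 in young replicates 1, 2 and 3. In aged replicates 1, 2 and 3 it read 0.73, 1.03 and 0.72. The young arrays lay close together, the aged arrays were all higher, and a gap of 1.19 log2 units lay between the groups. The young mean was -0.52 ± 0.055 and the aged mean 0.83 ± 0.18 (SD, n = 3 arrays in each group). They differed by 1.35 ± 0.13 (SE), or 2.54-fold. Within the slide row that held both ages, where young replicate 3 is the only young array, the difference was 1.30. Of the 14136 named genes 75, or 0.531%, had a larger positive difference.

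A second probe of Prkcb, with the same RefSeq accession, gave a smaller difference. It read -1.92, -1.86 and -1.34 in young replicates 1, 2 and 3 and -0.84, -0.96 and -1.43 in aged replicates 1, 2 and 3. Aged replicates 1 and 2 were above all young arrays, while aged replicate 3 lay just below young replicate 3, so the groups overlapped. The difference was 0.63 ± 0.23 log2 units (SE, n = 3 arrays per group), or 1.55-fold, less than that of the brighter probe by 0.71 log2 units. The brighter probe exceeded this probe by a mean of 1.19 log2 units in young and 1.90 in aged samples, so the offset between the probes was not the same at the 2 ages. Which transcript forms either probe reads was not tested.

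Prkcq, the calcium-independent kinase PKC-theta that is best known for signalling from the T cell receptor, was lower in aged epidermis. Its probe read -1.21, -1.54 and -1.56 in young replicates 1, 2 and 3. In aged replicates 1, 2 and 3 it read -1.71, -3.07 and -2.20. The aged values were all below the young ones, but aged replicate 1 by only 0.158 log2 units, and aged replicate 2 stood lowest. The young mean was -1.44 ± 0.19 and the aged mean -2.33 ± 0.69 (SD, n = 3 arrays in each group). They differed by -0.89 ± 0.34 log2 units (SE), or 1.86-fold. Within the slide row that held both ages, where young replicate 3 is the only young array, the difference was -0.77. Without aged replicate 2 the difference was -0.52, without aged replicate 1 it was -1.20, and with normexp background correction it was -0.47. Of the named genes 4.65% had a lower difference.

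The promoters of these genes are shown because Prkcb and Prkcq were the members whose groups did not overlap, in opposite directions. Each sequence holds the 250 bases before the start of the gene, from RefSeq on GRCm38.p6, 5′ to 3′ on the strand of the gene. Capitals mark 3 motifs on either strand: ATGCAAAT, the octamer bound by POU factors, GGGCGG, the GC box bound by Sp1, and CAGCTG, an E-box.
Prkcb, chr7:122288875-122289124, plus strand: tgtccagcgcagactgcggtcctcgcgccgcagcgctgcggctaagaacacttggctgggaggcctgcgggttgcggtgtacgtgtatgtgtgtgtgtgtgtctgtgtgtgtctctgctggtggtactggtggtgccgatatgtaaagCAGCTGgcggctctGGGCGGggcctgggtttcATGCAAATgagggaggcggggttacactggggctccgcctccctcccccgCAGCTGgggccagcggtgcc
Prkcq, chr2:11172132-11172381, plus strand: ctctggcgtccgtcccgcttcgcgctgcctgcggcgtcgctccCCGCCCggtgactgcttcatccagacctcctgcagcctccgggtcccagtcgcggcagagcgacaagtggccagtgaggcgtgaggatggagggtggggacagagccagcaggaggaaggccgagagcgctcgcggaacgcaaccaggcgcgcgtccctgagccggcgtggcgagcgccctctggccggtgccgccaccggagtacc

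The Prkcb window held 1 octamer, which begins 70 bases before the start of the gene, 1 GC box and 2 CAGCTG E-boxes. The Prkcq window held 1 GC box and neither other motif. Among the 32851 promoter windows of the same table and length 1.60% held the octamer, 32.7% the GC box and 13.0% the E-box. The motif TGANTCA of AP-1, the factor through which many phorbol ester responses run, was found in 6.75% of windows and in none of those of Prkca, Prkcb, Prkcd and Prkcq, the 4 genes matched. G and C made up 65.2% of the Prkcb window, 72.4% of the Prkcq window, 76.8% of that of Prkca, and 50.8% and 67.6% of the 2 windows of Prkcd, against a median of 52.4% over all windows. A match is a run of letters and not a measured site, and its part in the values above was not tested.

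Prkca, the conventional kinase PKC-alpha, is the widely expressed member of its subgroup and has been linked to the loosening of hemidesmosomes in keratinocytes. Its brighter probe read 0.21, -0.31 and -0.69 in young replicates 1, 2 and 3 and -0.55, -1.02 and -0.48 in aged replicates 1, 2 and 3. The young arrays spread widely, and young replicate 3 lay below 2 of the 3 aged arrays. The difference was -0.42 ± 0.27 log2 units (SE, n = 3 arrays per group). The second probe of Prkca read -1.13, -1.66 and -1.51 in young and -1.19, -1.77 and -1.38 in aged replicates 1, 2 and 3, with a difference of -0.011 ± 0.21. Within the slide row that held both ages, where young replicate 3 is the only young array, the brighter probe differed by 0.011. Without young replicate 1 it differed by -0.18 and without aged replicate 2 by -0.25.

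Among the calcium-independent kinases, the values of Prkcd and Prkch overlapped between the ages. Prkcd, PKC-delta, is known for its part in keratinocyte differentiation and in cell death. Its brighter probe read 2.89, 3.30 and 3.26 in young replicates 1, 2 and 3 and 2.82, 3.36 and 3.50 in aged replicates 1, 2 and 3. Replicate 1 was the lowest array of both ages, and the groups overlapped, with all young values inside the aged range. The difference was 0.080 ± 0.22 log2 units (SE, n = 3 arrays per group), and 0.060 ± 0.18 for its second probe. The 2 Prkcd probes kept an offset of 0.80 to 0.99 log2 units on all 6 arrays, the closest tracking of the 3 genes with a pair of probes, against 0.64 to 1.35 for Prkca and 0.87 to 2.15 for Prkcb.

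Prkch, PKC-eta, is the kinase of this family that is found above all in the differentiating layers of squamous epithelia. It read 0.38, -0.071 and 0.072 in young replicates 1, 2 and 3 and -0.077, 0.0075 and 0.35 in aged replicates 1, 2 and 3. Both groups covered nearly the same span, and the difference was -0.031 ± 0.18 log2 units (SE, n = 3 arrays per group). The signs of Prkcd and Prkch turned when single arrays were left out, with values of -0.058 to 0.28 and -0.16 to 0.094. That of Prkch also turned with scaling to the array median (0.045), and that of Prkcd with quantile normalization (-0.0048).

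Prkce, PKC-epsilon, whose excess in mouse skin is known to promote squamous cancer, had a lower mean in aged epidermis with overlapping groups. Its probe read -2.99, -2.38 and -2.82 in young replicates 1, 2 and 3 and -3.73, -3.12 and -2.91 in aged replicates 1, 2 and 3. Aged replicate 1 was lowest and young replicate 2 highest, while aged replicate 3 lay above young replicate 1. The difference was -0.52 ± 0.26 log2 units (SE, n = 3 arrays per group), or 1.44-fold lower. It was -0.29 without aged replicate 1 and -0.22 with normexp background correction.

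**Figure D2:**
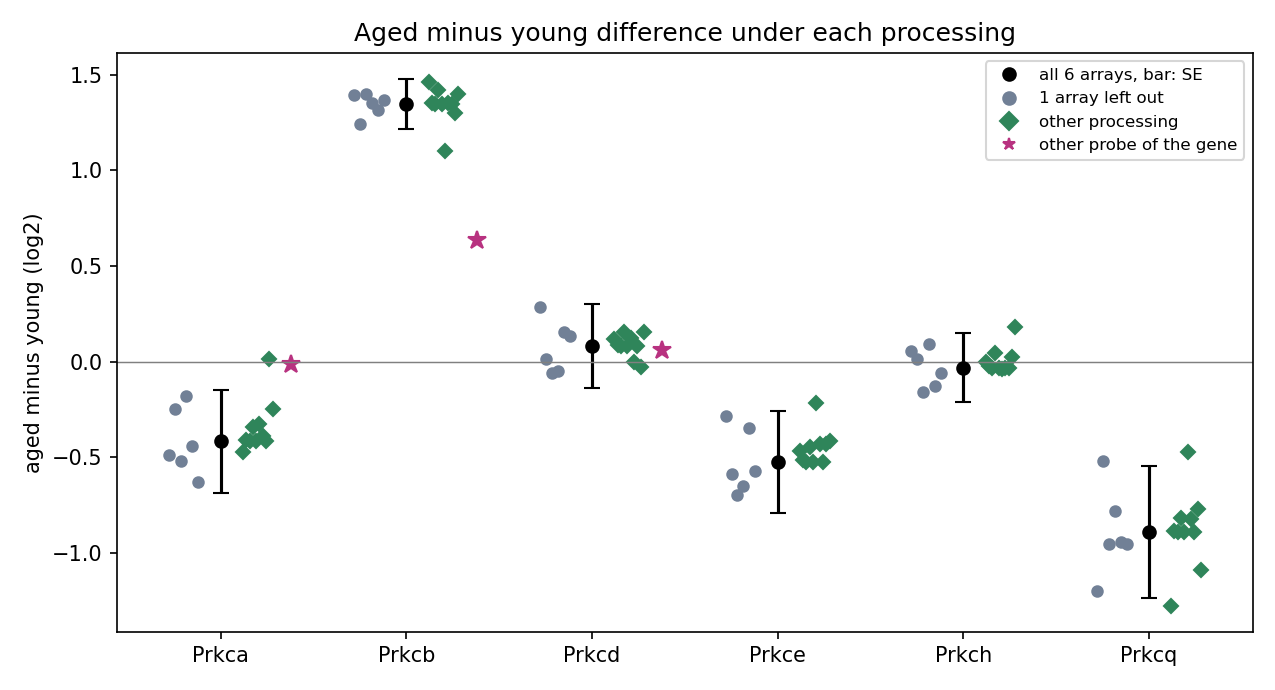
Aged minus young difference in log2 units of each gene. Black points with bars are the values from all 6 arrays ± SE, grey points leave out 1 array, green diamonds use other processing and stars the other probe of the gene. Prkcb stays between 1.103 and 1.46 with its brighter probe and is at 0.63 with the other, while Prkcd and Prkch straddle 0.

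Markers of the cell types that could carry Prkcb and Prkcq differed among the aged samples. Prkcb is known from pigment cells, where in human melanocytes the kinase activates tyrosinase, and from B cells and myeloid cells. The 10 melanocyte markers all had lower means in aged epidermis, and their summed level was 15.5 to 19.5 times the 75th percentile in young and 5.24 to 14.2 in aged samples. Of the 9 Langerhans and dendritic cell markers 8 had lower means, with summed levels of 13.7 to 19.1 and 4.77 to 18.9. Of the 4 B cell markers Cd79b and Ms4a1 were well above background on 0 arrays, and the summed level was 0.269 to 0.383 in young and 0.188 to 0.397 in aged samples. In whole epidermis, fewer cells of a type and less RNA per cell cannot be told apart.

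The marker lists differed between aged arrays on which the brighter probe of Prkcb was alike. Aged replicate 1 had the lowest Langerhans cell markers, with Cd207 at -6.96 against -2.43 to -1.64 in young samples, and aged replicate 3 had them at the young level, with Cd207 at -1.83. Not all genes of the list ran this way. Cd68, a lysosomal protein gene of macrophages, read 1.39, 1.39 and 1.77 in aged replicates 1, 2 and 3, above the young range of 0.74 to 1.13. Fcer1g, a signalling chain of Fc receptors, read -3.25, -3.05 and -2.77, below the young range of -2.44 to -2.05. The brighter probe of Prkcb read 0.73 and 0.72 on aged replicates 1 and 3, and its second probe -0.84 and -1.43. The median melanocyte marker was 0.055 log2 units below the young mean on aged replicate 1. It was 1.70 and 1.77 below it on aged replicates 2 and 3. The brighter probe of Prkcb was above the young range on all 3 aged arrays, and the second probe on aged replicates 1 and 2 only.

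Prkcq was lower on aged replicates 2 and 3 than on aged replicate 1, as were melanocyte and hair follicle markers. The 10 markers of hair shaft and inner root sheath all had lower means in aged epidermis, with summed levels of 856.5 to 1327 times the 75th percentile in young samples, 695.9 in aged replicate 1, 126.7 in aged replicate 2 and 22.4 in aged replicate 3. The order of the aged arrays was not the same, since Prkcq was lowest on aged replicate 2 and the follicle markers on aged replicate 3. Of the 11 T cell markers Cd3d, Cd247, Cd2 and Xcl1 were well above background on 0 arrays and 4 on all 6. The summed T cell level was 4.64 to 5.95 in young and 6.22 to 12.4 in aged samples. Without Thy1 it was 3.39 to 3.69 in young and 3.45 to 3.68 in aged samples. The sum without Thy1 rests mainly on the probes of Nkg7 and Cd3e and says little of the other genes. The median T cell marker lay -0.055, 0.038 and 0.12 log2 units from its young mean on aged replicates 1, 2 and 3. Of the 11 genes 5 had lower and 6 higher means in aged epidermis, with Cd3e at a difference of 0.067 and Cd3g, well above background on 3 arrays, at -0.97. Of 4 skeletal muscle markers Ckm, Myh4 and Tnnt3 were well above background on 0 arrays and Acta1 on 5, namely 3 young and 2 aged arrays. Among 6 fibroblast markers, Lum and Pdgfra were well above background on 0 arrays. Col1a1, Col1a2 and Col3a1 had all aged values below the young ones, with differences of -2.95, -2.08 and -2.41 log2 units. Col3a1 was well above background on 0 aged arrays. Dcn overlapped between the ages, with a difference of 0.21 and 4.34 on aged replicate 1. The part of any of these cells in the values of Prkcb and Prkcq was not tested.

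**Figure D3:**
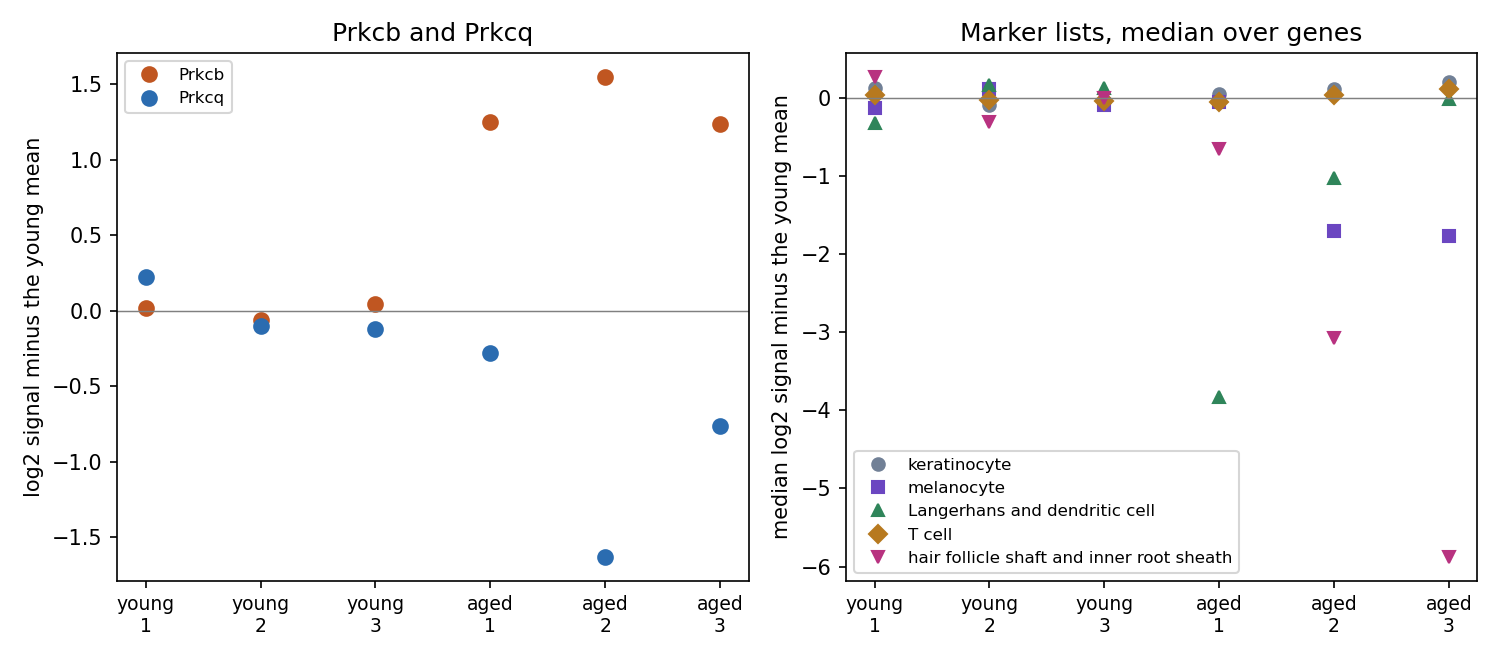
Left, log2 signal of Prkcb and Prkcq minus the young mean on each array. Right, the median over the genes of 5 marker lists of the same quantity. The brighter probe of Prkcb is high on all aged arrays. The Langerhans list is lowest on aged replicate 1, and the melanocyte and hair follicle lists are low on aged replicates 2 and 3.

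Profiles most like those of Prkcb and Prkcq were sought among the other 13076 named genes detected on all 6 arrays. Likeness was the root mean square difference between profiles centred on their mean over the 6 arrays. Nearest to Prkcb was Mesp2, whose product patterns the somites of the embryo, at 0.122 log2 units. Next came Slc16a11, a monocarboxylate transporter gene, at 0.164, Ehbp1l1 at 0.177, Ifi27l2a, an interferon-induced gene, at 0.183, and Pcdhb16, a clustered protocadherin gene, at 0.186. Their differences between the ages were 1.45, 1.21, 1.04, 1.52 and 1.12 log2 units, near that of Prkcb by construction.

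Nearest to Prkcq was Chn2 at 0.0995 log2 units, which encodes beta-chimaerin, a Rac GTPase activating protein that also binds diacylglycerol. It read -0.044, -0.32 and -0.45 in young replicates 1, 2 and 3 and -0.44, -1.75 and -1.18 in aged replicates 1, 2 and 3. As with Prkcq, aged replicate 2 was lowest and aged replicate 1 near the young arrays. Itih5, Wnt5a, a Wnt ligand gene, Ninl and Mark1, a microtubule affinity regulating kinase gene, followed at 0.159 to 0.190.

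Genes around the kinases were taken from 9 lists of 102 genes that hold none of the 6, and 78 of them were tested. The limma threshold was passed by 0 of the 78 in either direction (0.0279% of all features passed as higher and 0.0359% as lower). At an unadjusted p under 0.05 there were 4 higher and 5 lower, or 9 in all, against 9.81% and 8.54% of features. The replicate block made it 10. The median difference of the 78 genes was 0.051 log2 units, beside 0.093 over all named genes and 0.043 over all features. Without aged replicate 1, which leaves 2 aged arrays, 9 of the 78 passed, 5 higher and 4 lower, where 1.5% and 3.76% of all features passed. The higher genes were S100a8, S100a9, Hbegf, Fosb and Itgb4 and the lower ones included Prkcz, Akap12 and Chn2. S100a9 was named after its values were seen. Without replicate 1 of both ages 5 of the 78 passed (1.25% of features), with S100a8, S100a9, Prkcz and Akap12 among them. Hbegf, Fosb, Itgb4 and Chn2 then did not pass.

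The list of other and related kinases held 5 tested genes, with a median difference of -0.015 log2 units and 0 past the threshold. Prkcz, the atypical PKC-zeta of the cell polarity complex, read -1.85, -1.71 and -1.87 in young replicates 1, 2 and 3 and -2.70, -3.26 and -3.20 in aged replicates 1, 2 and 3. Its difference was -1.24 ± 0.18 log2 units (SE, n = 3 arrays per group, limma adjusted p = 0.0979), and -1.42 without aged replicate 1 (adjusted p = 0.00859). With normexp background correction it was -0.59 (adjusted p = 0.0767). Its aged values were all below the young ones. The other atypical kinase, Prkci, differed by -0.015 ± 0.12 (adjusted p = 0.959) and Pkn3 by 0.23 ± 0.12 (adjusted p = 0.366).

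Enzymes that make and remove diacylglycerol lay near 0. Of 12 phospholipase C genes 7 were tested, with differences of -0.19 to 0.15 log2 units, a median of 0.020, and 0 with an unadjusted p under 0.05. Plcg1 and Plcg2, which tyrosine kinases activate, differed by -0.13 ± 0.12 and 0.15 ± 0.14 (SE, n = 3 arrays per group). Plcd1, whose loss in mice is known to disturb hair, differed by -0.15 ± 0.14 and Plcb3 by 0.14 ± 0.16, with limma adjusted p between 0.591 and 0.661 for the 4. Of 10 diacylglycerol kinase genes, which turn the lipid into phosphatidic acid, 6 were tested, with differences of -0.29 to 0.19 and a median of 0.022, again 0 with an unadjusted p under 0.05. Dgkd differed by 0.19 ± 0.10, Dgkh by -0.29 ± 0.17, Dgkz by -0.12 ± 0.12 and Dgkq by 0.048 ± 0.14, with adjusted p of 0.365, 0.408, 0.633 and 0.883.

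Factors that mature, dock or degrade the kinases were all 17 detected, with a median difference of 0.11 log2 units and 0 past the threshold. At an unadjusted p under 0.05 there was 1 higher and 1 lower. The lower gene was Pick1, a scaffold that binds the PKC-alpha tail, at -0.36 ± 0.15 (SE, n = 3 arrays per group, limma adjusted p = 0.266). Its aged values were all below the young ones. The chaperone gene Hsp90ab1 differed by 0.22 ± 0.11 (adjusted p = 0.333). Akap12, a scaffold that holds PKC at the membrane, read -1.03, -1.52 and -1.46 in young replicates 1, 2 and 3 and -1.07, -2.88 and -3.01 in aged replicates 1, 2 and 3. It differed by -0.98 ± 0.53 (adjusted p = 0.368), with aged replicate 1 among the young values, and by -1.60 without that array (adjusted p = 0.0147).

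Other proteins that bind diacylglycerol were covered by 12 genes, of which 6 were tested, with a median difference of -0.11 log2 units and 0 past the threshold. Chn2 was the 1 lower gene at an unadjusted p under 0.05, at -0.86 ± 0.34 (SE, n = 3 arrays per group, limma adjusted p = 0.258). It was at -1.20 without aged replicate 1 (adjusted p = 0.0420) and at -1.09 without replicate 1 of both ages (adjusted p = 0.0962). The kinase gene Prkd2 differed by 0.36 ± 0.20, Unc13b by -0.18 ± 0.14 and Rasgrp4, an exchange factor for Ras, by -0.086 ± 0.23 (adjusted p = 0.385, 0.508 and 0.868).

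Among PKC substrates 13 of 14 genes were tested and 10 had higher means in aged epidermis, with a median difference of 0.20 log2 units and 0 past the threshold. Ppp1r14a, which encodes the myosin phosphatase inhibitor CPI-17 that PKC activates, read -2.48, -2.96 and -2.40 in young replicates 1, 2 and 3 and -0.996, -1.76 and -1.99 in aged replicates 1, 2 and 3. All aged values were above the young ones, and the difference was 1.03 ± 0.30 (SE, n = 3 arrays per group, limma adjusted p = 0.190). The integrin gene Itgb4, whose protein anchors the hemidesmosome, differed by 0.59 ± 0.20 (adjusted p = 0.218), and by 0.79 without aged replicate 1 (adjusted p = 0.0316). The related inhibitor genes Ppp1r14b and Ppp1r14c differed by 0.33 ± 0.17 and 0.23 ± 0.13 (adjusted p = 0.366 and 0.377).

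Genes that phorbol esters are known to act on in keratinocytes made up 3 lists. Of 10 differentiation genes 9 were tested, with differences of -0.43 to 0.083 log2 units, a median of -0.066 and 0 with an unadjusted p under 0.05, or 1, Krt1, with the replicate block. Sprr1a, a cornified envelope precursor gene, differed by -0.30 ± 0.16, the suprabasal keratin gene Krt1 by -0.43 ± 0.31, the envelope gene Ivl by 0.054 ± 0.0998 and the transglutaminase gene Tgm3 by 0.083 ± 0.18 (SE, n = 3 arrays per group, limma adjusted p between 0.374 and 0.840). Krt1 read 8.32, 7.76 and 7.44 in young replicates 1, 2 and 3 and 7.90, 7.33 and 7.0035 in aged replicates 1, 2 and 3, lower in each pair of the same number. With the replicate block its difference was -0.43 ± 0.11 (limma adjusted p = 0.18).

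Of 14 inflammatory and growth genes 8 were tested, with a median difference of 0.28 log2 units and 0 past the threshold. Odc1, the ornithine decarboxylase gene and a classic phorbol ester response, read 3.63, 3.70 and 3.79 in young replicates 1, 2 and 3 and 4.04, 4.02 and 4.11 in aged replicates 1, 2 and 3. The groups did not overlap, and the difference was 0.35 ± 0.11 (SE, n = 3 arrays per group, limma adjusted p = 0.201). Tgfa, a ligand of the EGF receptor, differed by -0.61 ± 0.22 (adjusted p = 0.231), with all aged values below the young ones. The alarmin gene S100a8 parted the aged arrays, with 2.00, 1.498 and 1.90 in young replicates 1, 2 and 3 and -1.82, 6.48 and 5.89 in aged replicates 1, 2 and 3. It differed by 1.72 ± 2.16 (adjusted p = 0.699), and by 4.39 without aged replicate 1 (adjusted p = 0.00301). Hbegf, another EGF receptor ligand, differed by 0.50 ± 0.66 (adjusted p = 0.709), and by 1.29 without that array (adjusted p = 0.0242). Without replicate 1 of both ages Hbegf differed by 1.23 (adjusted p = 0.0751).

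Several of the 7 AP-1 subunit genes also parted the aged arrays. The median difference was 0.35 log2 units, with 6 means higher and 0 with an unadjusted p under 0.05. Fosb read 1.79, 2.39 and 2.63 in young replicates 1, 2 and 3 and 1.38, 4.67 and 3.81 in aged replicates 1, 2 and 3. It differed by 1.01 ± 0.82 (SE, n = 3 arrays per group, limma adjusted p = 0.535), and by 1.97 without aged replicate 1 (adjusted p = 0.0374). Without replicate 1 of both ages Fosb differed by 1.73 (adjusted p = 0.0838). Fos, Jund and Junb differed by 0.63 ± 0.63, 0.21 ± 0.21 and 0.35 ± 0.36 (adjusted p = 0.622, 0.608 and 0.625). With each array left out Fos was at 0.22 to 1.35, Jund at 0.094 to 0.43 and Junb at 0.10 to 0.76, all 3 highest without aged replicate 1.

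**Figure D4:**
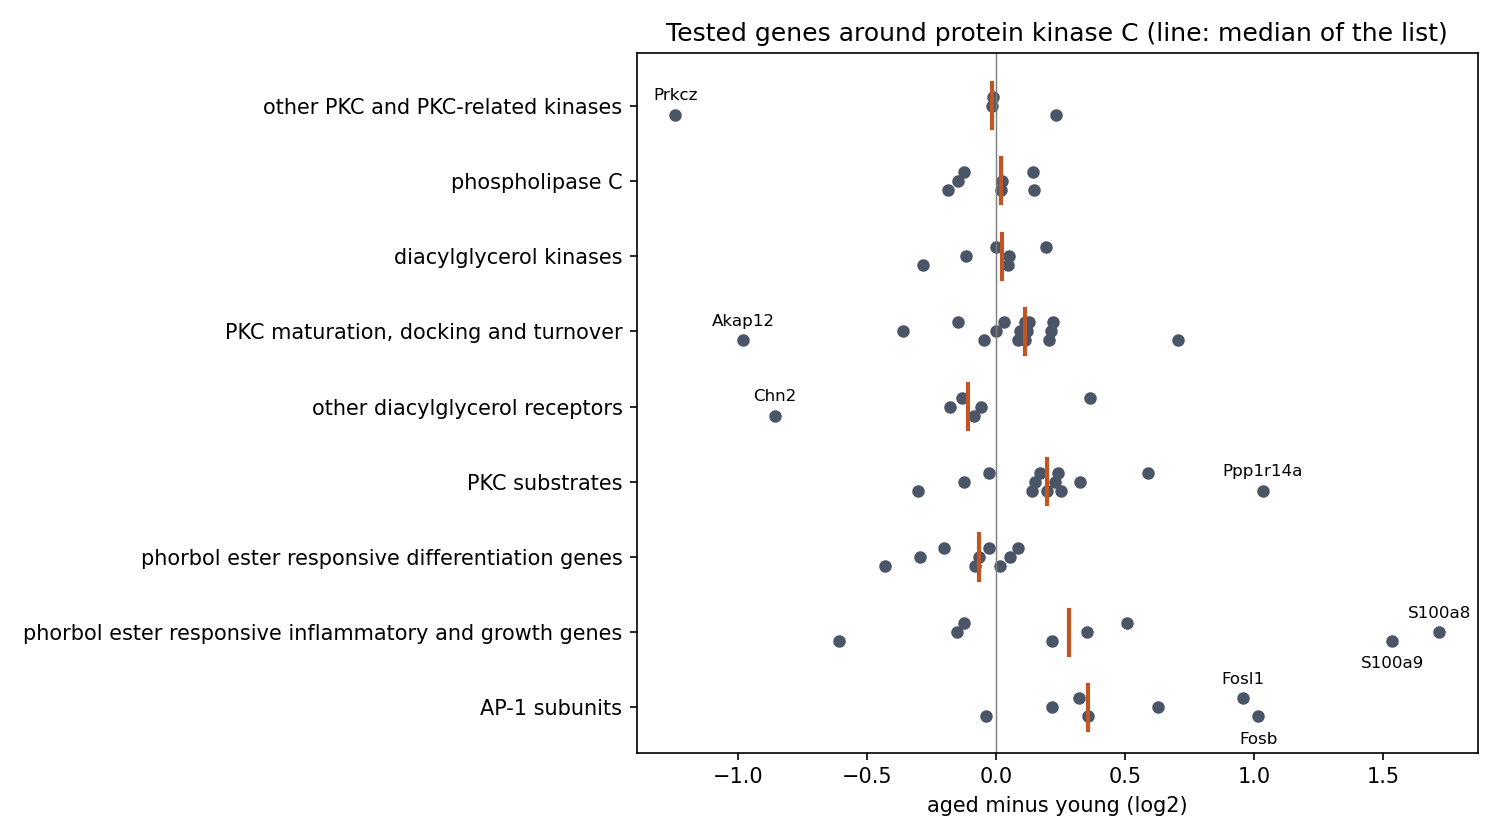
Aged minus young difference in log2 units of the tested genes of 9 lists around protein kinase C, with the median of each list as a line. Genes beyond 0.8 log2 units are labelled, and 2 tested genes that are not reported here have no point. Most genes lie near 0, Prkcz lies furthest to the left, and the genes furthest to the right, S100a8 and S100a9, are those that part the aged arrays.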

How the data were processed

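Feature Extraction 11.5.1.1 read the arrays of 1 slide in 1 scan, per the file headers. Its deposited processed signal is a linear intensity, corrected for background and spatial trend but unscaled across arrays, per the file headers. The authors' deposited table holds log2 values of 33870 probes, which matched the values used here, centred on each probe's median, with a correlation of at least 0.9999 per array.

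Processed signals were put on a log2 scale and centred on the 75th percentile of non-control spots of their array. Control and outlier spots were dropped, and repeated spots were averaged per probe. RefSeq accessions named 28331 of 55681 probes through a GRCm38.p6 table; promoters were matched by symbol. Probes well above background on at least 3 arrays were tested, with the brightest standing for a gene.

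Ages were compared with limma 3.58.1 in R 4.3.3 (lmFit, eBayes, two-sided, Benjamini-Hochberg over 25068 features), and the fit was tested on simulated data. Alternatives were normexp (offset 50, on median spot and background signals in place of the planned mean signals), quantile and median scaling, other filters, a replicate block, array weights, the authors' table, and arrays left out. The normexp columns and the slide row were chosen after seeing the data. Members, gene lists and the naming rule (all member probes, up to 4 genes per list by unadjusted p, 5 nearest profiles) were chosen with earlier results of these data known. Samples sharing a replicate number deviated together from their group means, with correlations over features of 0.414, 0.259 and 0.102, all above 0.1. The labels name nothing that samples of the same number share, so whether the numbers pair samples is not known. The main fit left them unpaired, and the replicate number served as a block in an alternative. The replicate 1 arrays, which gave 0.414, were also the only arrays with Ddx3y and Eif2s3y well above background. Some genes of the lists are counted but not reported here by name.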

Additional observations from a re-analysis of the deposited data

How the results depend on the processing

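The number of arrays limits all differences. Prkcb stayed positive under all settings tried. Its difference was 1.103 with normexp and 0.63 for the other probe, and 1.24 to 1.40 with each array left out. Prkca moved to 0.011 with the slide row as a block and to -0.011 for its other probe. With each array left out it was -0.63 to -0.18, Prkcd -0.058 to 0.28, Prkce -0.70 to -0.29, Prkch -0.16 to 0.094 and Prkcq -1.20 to -0.52. With the replicate block the differences were as reported, with 11 genes past the threshold becoming 0, and list genes at an unadjusted p under 0.05 going from 9 to 10. It changed no other count of calls at the adjusted threshold. The slide row block also gave 0 genes.

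The count of genes past the threshold was 21 with median scaling, 7 with quantile normalization, 3 with detection on all 6 arrays, 1 without the filter, 1127 with array weights, 215 without replicate 1 of both ages, and 0 to 809 with each array left out. Of the 78 list genes 4 passed with array weights, 5 without replicate 1 of both ages, and 0 to 9 with each array left out.

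Signs turned for named genes near 0. Dgkq was -0.071 with array weights, -0.035 with quantile normalization, -0.11 with the slide row, -0.050 without replicate 1 of both ages, and -0.054 to 0.13 with each array left out. Prkci was 0.044 with array weights, 0.061 with median scaling, 0.081 with the slide row, 0.088 without replicate 1 of both ages, and -0.063 to 0.057 with each array left out. With each array left out Hbegf was -0.015 to 1.29, Rasgrp4 -0.25 to 0.12 and Tgm3 -0.067 to 0.24. The causes were not tested.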
